A study of Bos taurus with 12 samples.

Results

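The hypoxia-inducible factors and a set of their known target genes were followed in the regressing bovine corpus luteum. They comprised 9 of the 27270 genes measured: the factor subunits HIF1A, EPAS1 and ARNT, the oxygen-sensing hydroxylases EGLN1 and EGLN3, and the targets BNIP3, NDRG1, DDIT4 and ANKRD37. Each was found by its gene symbol, and each symbol stood on 1 row of every table. RNA of whole corpora lutea came from 12 mixed breed cows whose cycles had been synchronized, with 1 library per cow and 4 cows per group. Control cows received saline on day 10 of the cycle (mid-luteal phase), and treated cows received a luteolytic i.m. dose of prostaglandin F2α (PGF2α) and were ovariectomized 4 h or 12 h later. The methods of the study describe synchronization with earlier injections of PGF2α, so all 3 groups had met the hormone before. The question addressed here is how the transcripts of this pathway stood at 4 h and 12 h post-PGF2α against the mid-luteal controls, and how they differed between the treated groups.

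A hypoxia-inducible factor is a pair of proteins, an alpha subunit (HIF1A or EPAS1) and the beta subunit ARNT, that binds DNA and switches on genes for low-oxygen life. In oxygenated cells the EGLN enzymes hydroxylate the alpha subunits, which marks them for capture by VHL and destruction, so alpha subunits are set largely at the protein level and the RNA of a subunit does not report its activity. EGLN3, BNIP3, NDRG1, DDIT4 and ANKRD37 are themselves known as targets of the factor. In the corpus luteum the pathway is known for its link to VEGFA and the dense capillary bed of the gland, which is lost at luteolysis.

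Levels are given in TPM (a share of all transcripts, corrected for transcript length), and changes as log2 fold changes of TMM-scaled counts with their standard errors (SE) from edgeR. Values of single cows follow the order cow4285, cow6464, cow7367 and cow7514 for controls, cow4291, cow5341, cow6455 and cow6456 for 4 h, and cow5266, cow6314, cow7382 and cow7475 for 12 h. A gene is said to have risen or fallen where its Benjamini-Hochberg adjusted p over all 14481 tested genes was under 0.05. Expected counts summed to between 10263310 and 22600213 per library. TPM and TMM-scaled counts disagree in part at 12 h. Weighted by TPM, the average transcript length was 1413 to 1577 bases in the 12 h libraries and 1628 to 1728 in the controls. Mitochondrially encoded RNA took 12.4% to 14.1% of the counts in 3 cows at 12 h, 7.22% in cow6314, and 6.77% to 10.0% in controls. Over all tested genes the median change at 12 h was a log2 value of 0.01 on the count scale and -0.25 on log2(TPM + 1), and the genes called there split into 3417 that rose and 3665 that fell on the count scale, against 1509 and 5631 on the TPM scale. Levels of cell type markers also differed. At 12 h, 6 of 8 markers of steroidogenic luteal cells fell and none rose, and their summed TPM was 14191 to 26202 against 29164 to 45638 in controls. OXT, the most abundant of these markers, went the other way without passing (0.67, SE 0.27, adjusted p = 0.0570). Under DESeq2 1 of the 8 rose and 7 fell, and on log2(TPM + 1) 0 rose and 7 fell. Markers of macrophages and monocytes rose in 8 of 12 cases and those of neutrophils in 6 of 9, with none falling (7 of 12 and 4 of 9 on log2(TPM + 1)). No listed marker of any cell type was at 0 in all libraries. In bulk tissue, fewer cells of a type and less RNA per cell cannot be told apart, and the part of these shifts in the results below was not tested.

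At 4 h post-PGF2α, 2 of the 8 members that reached the count minimum rose (NDRG1 and EGLN1) and none fell, against a background of 14.2% of all tested genes called, 8.65% that rose and 5.59% that fell. At 12 h, 5 of the 8 had changed against a background of 48.9%: NDRG1, EGLN1 and BNIP3 rose (23.6% of all genes rose) and ARNT and DDIT4 fell (25.3% fell). Between 12 h and 4 h, 7 of the 8 differed, where 46.7% of all genes did: ARNT, DDIT4, NDRG1 and HIF1A were lower at 12 h (24.3% of all genes) and EGLN3, BNIP3 and EGLN1 were higher (22.5%). ANKRD37 did not reach the count minimum and is described separately. In TPM the 12 h and control groups did not overlap for 6 of the 9 members (HIF1A, ARNT, EGLN1, NDRG1, DDIT4 and ANKRD37), against 44.0% of all tested genes. The 4 h and control groups did not overlap for 2 of the 9 (EGLN1 and NDRG1), against 19.0%, and the 12 h and 4 h groups did not overlap for 6 of the 9 (HIF1A, EPAS1, ARNT, NDRG1, DDIT4 and ANKRD37), against 38.9%. ANKRD37 is counted among the 9 here, but it is not among the tested genes that these shares cover. The 3 comparisons share their groups, so they are not independent of each other.

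**Figure D1:**
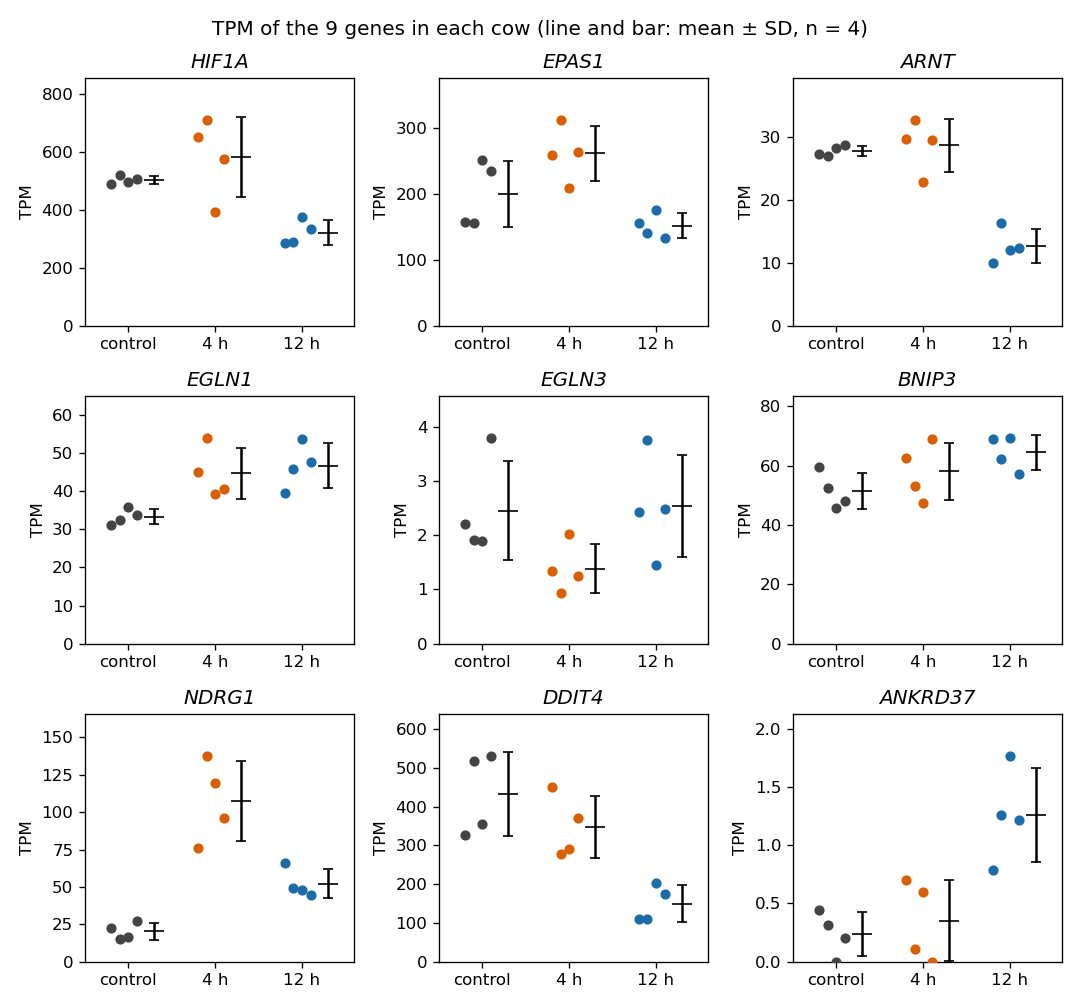
TPM of each of the 9 genes in every cow (points, 1 per cow) by group on the x axis, with the group mean and SD beside them (n = 4) and a y axis from 0 in each panel. NDRG1 is higher in all treated cows than in any control, while ARNT and DDIT4 drop at 12 h only after staying within reach of the controls at 4 h.

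HIF1A, the oxygen-regulated alpha subunit expressed in most cells, lies on chromosome 10 from 73836334 to 73881299 (ARS-UCD 1.2) and was the most abundant member in every group by mean TPM. Its TPM in the control cows was 489, 520, 496 and 505. At 4 h it was 651, 712, 394 and 576, and at 12 h 287, 290.0, 376 and 333. Controls were tightly grouped, 3 of the 4 cows at 4 h lay above all of them while cow6455 lay below, and all 4 cows at 12 h lay below every control and every 4 h cow. The mean fell from 503 ± 13.5 in controls to 321 ± 42.0 at 12 h (SD, n = 4), a ratio of 0.639 (exact two-sided permutation test, p = 0.0286, the smallest that 4 cows against 4 can give).

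The count scale gave a smaller difference for HIF1A. The TMM-scaled CPM was 1131, 1268, 1236 and 1190.0 in controls and 923, 754, 1139 and 1027 at 12 h, so that cow7382 at 12 h passed the lowest control. The log2 fold change at 12 h was -0.33 (SE 0.16, adjusted p = 0.118, edgeR), which is not past the threshold, whereas limma on log2(TPM + 1) gave -0.65 (adjusted p = 0.00430) and on log2(FPKM + 1) -0.45 (adjusted p = 0.0270). At 4 h the value was 0.24 (SE 0.16, adjusted p = 0.366). Between 12 h and 4 h HIF1A was lower at 12 h on both scales, with a log2 difference in counts of -0.57 (SE 0.17, adjusted p = 0.0141). That call was lost without cow5341 (-0.43, adjusted p = 0.0588) and with an offset for transcript length (-0.33, adjusted p = 0.115).

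EPAS1, the alpha subunit best known from endothelium, lies on chromosome 11 from 28734999 to 28828070. Its TPM in controls was 158, 156, 252 and 235, which formed a lower and an upper pair. At 4 h it was 259.9, 313, 209.8 and 265, and at 12 h 157, 141, 176 and 133. The 4 h and 12 h cows did not overlap, while both groups overlapped the controls. EPAS1 did not pass the threshold at 4 h (0.41, SE 0.19, adjusted p = 0.180), at 12 h (-0.09, SE 0.19, adjusted p = 0.734) or between 12 h and 4 h (-0.49, SE 0.19, adjusted p = 0.0513). The last of these lay at the threshold and was past it under DESeq2 (-0.50, adjusted p = 0.0255) and RLE scaling (-0.50, adjusted p = 0.0475). It was also past it without control cow4285, control cow7367, cow6455, cow5266 or cow7382 (adjusted p = 0.0331 to 0.0499). On log2(TPM + 1) it was -0.78 (limma, adjusted p = 0.00283). Both other limma scales, no count minimum, a minimum of 50 and the fit of 2 groups only gave the call too. The remaining alternatives did not. The sign of the 12 h value turned without cow6314 (0.04), control cow7367 (0.07) or control cow7514 (0.03) and with the transcript length offset (0.21), in no case past the threshold. Of 12 endothelial markers, 2 rose and 2 fell at 4 h, and 3 rose and 1 fell at 12 h, with a summed TPM of 545 to 839 in controls, 589.9 to 889 at 4 h and 464 to 945 at 12 h. The endothelial rises at 12 h depended on the scale and on the cows, since on log2(TPM + 1) 0 rose and 1 fell, and without cow6455 and cow6314 1 rose and 1 fell.

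ARNT, the constitutive beta subunit that both alpha subunits need as a partner, lies on chromosome 3 from 19884889 to 19949933. It had the lowest adjusted p of the subunits at 12 h. Its TPM was 27.2, 27.0, 28.2 and 28.6 in controls, 29.5, 32.7, 22.7 and 29.5 at 4 h and 9.90, 16.2, 12.1 and 12.3 at 12 h. Every cow at 12 h was below every cow of the other groups, and the 4 h cows lay on both sides of the controls. ARNT fell at 12 h by 0.89 on the log2 scale (SE 0.11, adjusted p = 7.54e-05) and was 0.97 lower than at 4 h (log2 difference -0.97, SE 0.11, adjusted p = 5.73e-05). At 4 h the value was 0.07 (SE 0.11, adjusted p = 0.707). The value at 12 h was -1.10 on log2(TPM + 1) and -0.84 with the transcript length offset, past the threshold in both.

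The reported transcript length of ARNT differed too. ARNT has 3 annotated transcripts, and the length that RSEM reports for the gene is the mean over them weighted by their abundance. This length was 2553, 2538, 2571 and 2546 bases in controls and 2472, 2476, 2476 and 2451 at 12 h. All 4 cows at 12 h were shorter than every control, with a mean of 2469 bases against 2552 (exact two-sided permutation test, p = 0.0286). At 4 h it was 2552, 2578, 2479 and 2598, with cow6455 alone near the 12 h values. The 12 h and 4 h groups did not overlap either (exact permutation test, p = 0.0286). The files give no value per transcript, so a change in any of the 3 transcripts was not resolved. The 12 h libraries were also shorter in mean transcript length over all genes, and the part of that in the ARNT length was not tested. How often the lengths of other genes with several transcripts did not overlap was not determined. The lengths of EPAS1 (2 transcripts) and NDRG1 (4 transcripts) overlapped between groups in all comparisons, with exact permutation p values of 0.457 to 1 among 9 length tests.

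EGLN1, the hydroxylase that is the main oxygen sensor of the pathway, lies on chromosome 28 from 4087440 to 4150379. Its TPM was 31.1, 32.6, 35.9 and 33.8 in controls, 45.0, 54.2, 39.3 and 40.6 at 4 h and 39.5, 46.0, 53.9 and 47.8 at 12 h. All 8 treated cows were above all 4 controls. On the log2 count scale EGLN1 rose by 0.45 at 4 h (SE 0.13, adjusted p = 0.0309) and by 0.80 at 12 h (SE 0.13, adjusted p = 0.000283). The rise at 4 h was no longer past the threshold without cow5341 (0.36, adjusted p = 0.0806), control cow4285 (0.42, adjusted p = 0.0658), control cow6464 (0.47, adjusted p = 0.0575) or control cow7514 (0.47, adjusted p = 0.0694).

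The step in EGLN1 from 4 h to 12 h depended on the scale. It was 0.34 on TMM-scaled counts (SE 0.12, adjusted p = 0.0381) and 0.07 on log2(TPM + 1) (limma, adjusted p = 0.683), and the treated groups overlapped in TPM. On counts it was also lost when cow4291, cow6455, cow6456, cow7382 or cow7475 was left out (adjusted p = 0.0684 to 0.154).

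EGLN3, a hydroxylase that is also a strong hypoxia target in many cells, lies on chromosome 21 from 44387137 to 44416154 and was scarce, with 23 to 104 expected counts per library. Its TPM was 2.22, 1.91, 1.89 and 3.81 in controls, 1.34, 0.94, 2.02 and 1.25 at 4 h and 2.44, 3.77, 1.46 and 2.49 at 12 h. In the 4 h group, 3 cows lay below all controls and cow6455 lay within them, while the 12 h cows spread across the control range. EGLN3 did not pass the threshold at 4 h (-0.79, SE 0.33, adjusted p = 0.136) or at 12 h (0.34, SE 0.32, adjusted p = 0.410). It was higher at 12 h than at 4 h (1.12, SE 0.33, adjusted p = 0.0149), a call that limma on log2(TPM + 1) did not make (0.55, adjusted p = 0.0626).

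**Figure D2:**
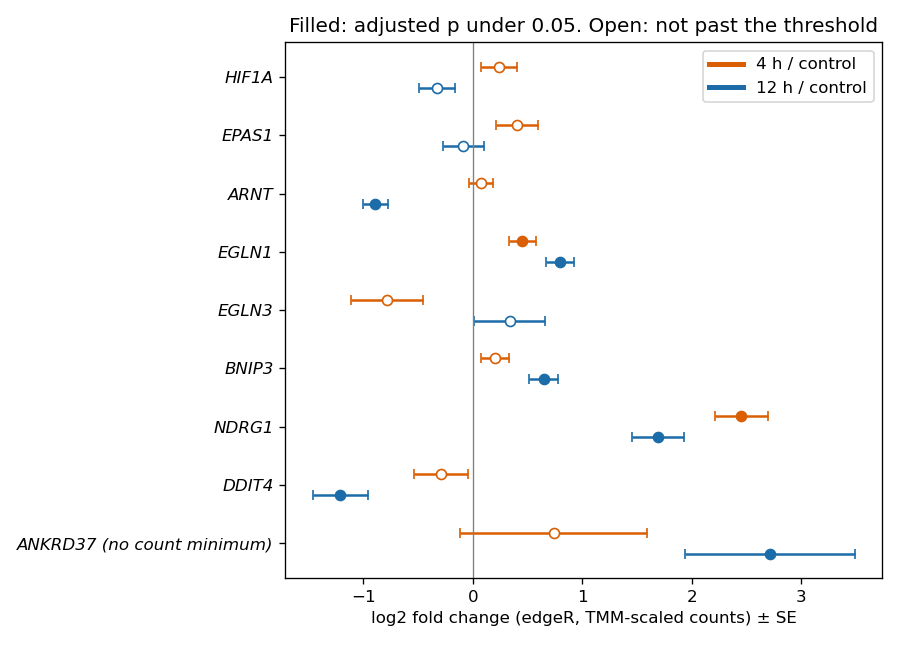
The log2 fold change of TMM-scaled counts (x axis, edgeR, bars: SE) of each gene at 4 h and at 12 h against the controls, with filled points where the adjusted p was under 0.05. NDRG1 has the largest called rise at 4 h (2.45), and ARNT and DDIT4 are the called falls at 12 h (-0.89 and -1.21). ANKRD37 comes from the fit without a count minimum.

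Ratios within a cow do not depend on a factor applied to a whole library. A dependence on transcript length that differs between libraries can remain in them. The TPM ratio of EGLN3 to EGLN1 was 0.0713, 0.0586, 0.0526 and 0.113 in controls and 0.0298, 0.0174, 0.0514 and 0.0308 at 4 h. Every 4 h cow was below every control, with cow6455 only just so, and the mean log2 ratio was 1.23 lower (a difference of -1.23, exact two-sided permutation test, p = 0.0286). At 12 h the ratio was 0.0618, 0.0820, 0.0271 and 0.0521, which overlapped the controls (difference -0.45, exact permutation test, p = 0.400) and the 4 h cows (0.78, exact permutation test, p = 0.171).

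The TPM ratio of EPAS1 to HIF1A was 0.322, 0.2995, 0.509 and 0.466 in controls. It was 0.399, 0.440, 0.533 and 0.4599 at 4 h and 0.546, 0.488, 0.468 and 0.401 at 12 h. The groups overlapped in all 3 comparisons, and the log2 difference was 0.23 at 4 h (exact permutation test, p = 0.343) and 0.28 at 12 h (exact permutation test, p = 0.257). In each of the 12 cows the TPM of EPAS1 was at most 0.546 times that of HIF1A. In all, 6 such ratio tests and 27 tests of TPM were run, and their p values are not adjusted.

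**Figure D3:**
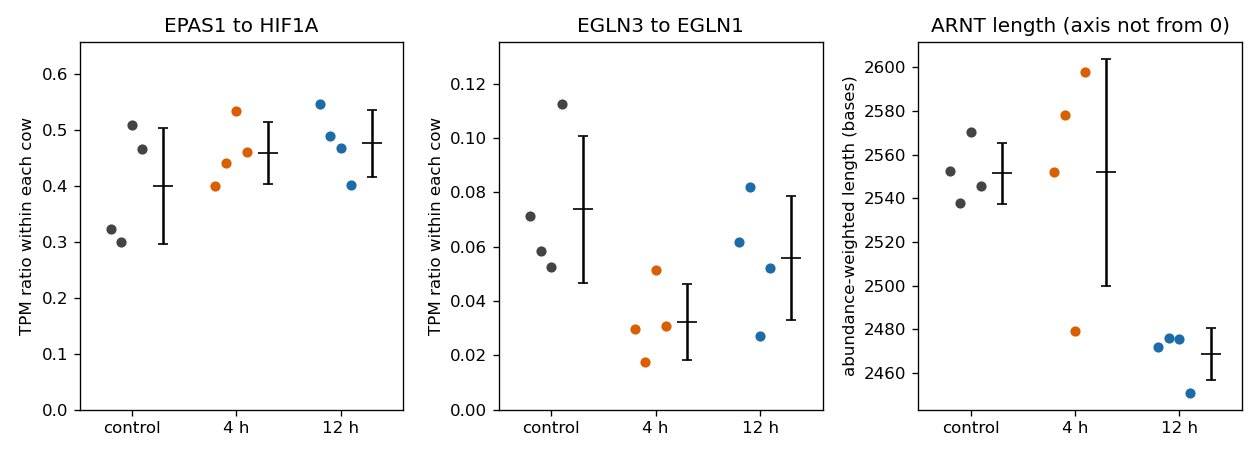
The within-cow TPM ratios of EPAS1 to HIF1A and of EGLN3 to EGLN1 (y axes from 0) and the abundance-weighted transcript length of ARNT in bases (y axis not from 0), with 1 point per cow and group means with SD (n = 4). EGLN3 to EGLN1 is lower in all 4 h cows than in any control, and the ARNT length is lower in all 12 h cows than in any other cow.

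NDRG1, a stress-responsive gene that hypoxia induces in many cell types, lies on chromosome 14 from 8073208 to 8129604 and showed the largest change among the 8 tested members. Its TPM was 22.7, 15.1, 16.4 and 26.9 in controls. At 4 h it was 76.0, 138, 119.5 and 96.1, and at 12 h it was 66.3, 49.1, 48.0 and 44.6. None of the 3 groups overlapped in TPM, with the 4 h cows highest. The mean TPM at 4 h was 5.30 times that of the controls, and the rise of NDRG1 was 2.45 in log2 counts (SE 0.24, adjusted p = 7.02e-05). At 12 h the mean TPM was 2.57 times the control mean, a rise of 1.69 in log2 counts (SE 0.24, adjusted p = 0.000138).

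Between 12 h and 4 h the log2 difference of NDRG1 was -0.76, so it was lower at 12 h (SE 0.23, adjusted p = 0.0178). This call was lost without cow5341 (-0.61, adjusted p = 0.0655) and without cow6314 (-0.65, adjusted p = 0.0532). In TMM-scaled CPM the highest 12 h cow (165) passed the lowest 4 h cow (139).

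BNIP3, a mitochondrial protein that promotes mitophagy and cell death, lies on chromosome 26 from 51221616 to 51226873. Its TPM was 59.7, 52.4, 45.8 and 48.1 in controls, 62.6, 53.0, 47.5 and 69.0 at 4 h and 68.9, 62.3, 69.4 and 57.2 at 12 h. All 3 groups overlapped in TPM. On TMM-scaled counts, where the 12 h cows (19.4 to 26.5 CPM) lay above all controls (13.6 to 16.5 CPM), BNIP3 rose at 12 h by 0.65 (SE 0.13, adjusted p = 0.00160), and it did not pass at 4 h (0.20, SE 0.13, adjusted p = 0.332). It was higher at 12 h than at 4 h (0.44, SE 0.13, adjusted p = 0.0151).

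The annotated BNIP3 model is short, at 570 bases. When each library was corrected for its own dependence on transcript length, the value at 12 h was 0.27 (adjusted p = 0.0933) and that between 12 h and 4 h was 0.00 (adjusted p = 0.998), neither past the threshold. On log2(TPM + 1) the value at 12 h was 0.32, where the median gene was at -0.25. The call between 12 h and 4 h was also lost on log2(TPM + 1) (limma, 0.16, adjusted p = 0.323). On counts it was lost without cow5266 (0.35, adjusted p = 0.0637) or cow7382 (0.37, adjusted p = 0.0586).

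**Figure D4:**
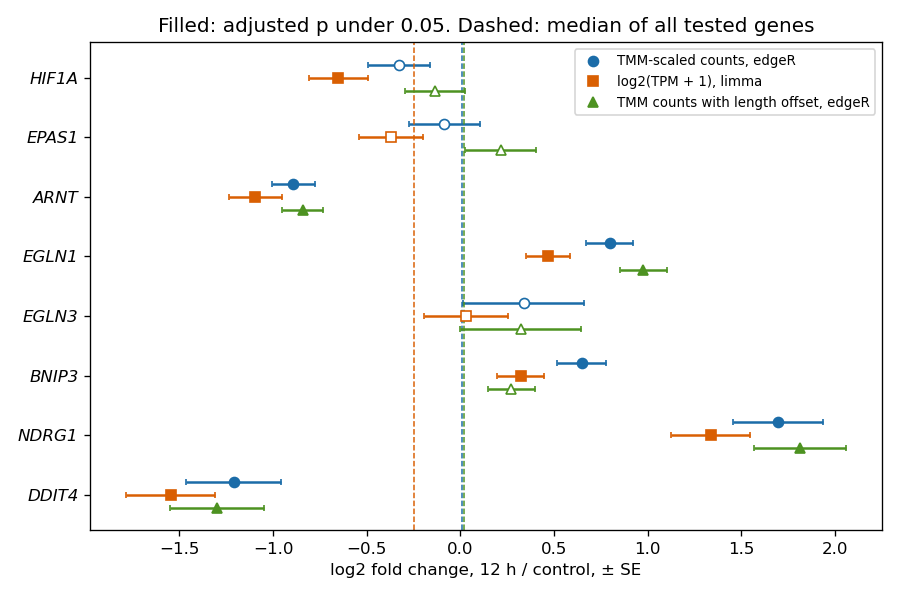
The log2 fold change of each tested member at 12 h against control (x axis, bars: SE) on TMM-scaled counts, on log2(TPM + 1) and on counts with an offset for transcript length, filled where the adjusted p was under 0.05, with the median of all tested genes dashed. ARNT, EGLN1, NDRG1 and DDIT4 keep direction and call on all 3 scales, while HIF1A is called only in TPM and BNIP3 loses its call with the length offset.

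DDIT4, an inhibitor of mTORC1 signalling that many stresses induce, lies on chromosome 28 from 28323892 to 28325899 and was the most abundant of the target genes in all groups by mean TPM. Its TPM was 326, 518, 355 and 532 in controls, 452, 278, 292 and 372 at 4 h and 111, 109, 203 and 175 at 12 h. All 4 cows at 12 h lay below every other cow, and the 4 h cows overlapped the controls. DDIT4 fell at 12 h by 1.21 on the log2 scale (SE 0.25, adjusted p = 0.00186), to 0.345 times the control mean in TPM. At 4 h the value was -0.29 (SE 0.25, adjusted p = 0.481), and the 12 h group was below the 4 h group by a log2 difference of -0.92 (SE 0.25, adjusted p = 0.00990). The call at 12 h was kept under every alternative run.

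ANKRD37, an ankyrin repeat protein known as a hypoxia target in human cells, lies on chromosome 27 from 15651437 to 15654048 and was barely detected. Its expected counts were 2, 3, 0 and 2 in controls, 7, 1, 5 and 0 at 4 h and 7, 11, 14 and 8 at 12 h. Each 12 h cow held at least as many counts as any other cow, and in TPM (0.79, 1.26, 1.77 and 1.22) each was above all controls (0 to 0.44) and all 4 h cows (0 to 0.70). The summed counts of 40 at 12 h against 7 in controls gave a ratio of 7.17 after scaling (exact 95% interval 3.18 to 19.0, for counting error only). In the edgeR fit without a count minimum ANKRD37 rose at 12 h (2.71, SE 0.78, adjusted p = 0.0148), and at 4 h, with 13 counts, the ratio was 1.78 (0.661 to 5.28) and the adjusted p was 0.646. The span of the next gene, UFSP2, starts at 15654102, just past the end of ANKRD37, and its mean TPM was 15.3 in controls and 11.6 at 12 h.

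The rest of the oxygen-sensing machinery was followed in 19 tested genes of a list of 20. At 4 h, 2 of the 19 rose and 2 fell, with a median log2 fold change of 0.01 against -0.03 over all tested genes, of which 8.65% rose and 5.59% fell. ARNT2, a paralog of ARNT, rose by 1.05 (SE 0.22, adjusted p = 0.00871) and HSP90AA1, the chaperone that holds HIF1A, by 0.40 (SE 0.10, adjusted p = 0.0224). CHCHD4, a mitochondrial import protein, and SIAH1, a ubiquitin ligase that targets EGLN proteins, fell by 0.35 (adjusted p = 0.0323) and 0.32 (adjusted p = 0.0384). On log2(TPM + 1), HSP90AA1 (adjusted p = 0.0617) and SIAH1 (adjusted p = 0.194) did not pass.

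At 12 h, 4 of the 19 rose and 6 fell, with a median of 0.01, the same as over all tested genes, of which 23.6% rose and 25.3% fell. That split turned on the scale: on log2(TPM + 1), where all tested genes had a median of -0.25, 1 of the 19 rose and 11 fell (median -0.30). EP300, a coactivator that binds the alpha subunits, went from a mean of 21.3 TPM in controls to 8.44 and fell by 1.03 (SE 0.11, adjusted p = 2.00e-05). HIF1AN, the asparagine hydroxylase that blocks that binding, went from 47.6 to 19.1 TPM and fell by 1.01 (SE 0.12, adjusted p = 3.53e-05). CITED2, which competes with the alpha subunits for EP300, went from 41.8 to 108 TPM and rose by 1.68 (SE 0.21, adjusted p = 5.67e-05). ELOB, a subunit of the VHL ubiquitin ligase, rose by 0.51 (SE 0.09, adjusted p = 0.000760) on the count scale but did not pass on log2(TPM + 1) (0.19, adjusted p = 0.0781).

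Of 38 tested hypoxia targets outside glycolysis, 7 rose and 3 fell at 4 h (median -0.02). At 12 h, 13 rose and 6 fell (median 0.15). All-gene shares were 8.65% up and 5.59% down at 4 h, and 23.6% up and 25.3% down at 12 h. On log2(TPM + 1) the 12 h majority was reversed, with 7 up and 11 down (median -0.15), and at 4 h there were 4 in each direction. At 4 h RAB20, a small GTPase, rose by 2.20 (SE 0.21, adjusted p = 5.78e-05) and BHLHE40, a transcriptional repressor, by 2.10 (SE 0.36, adjusted p = 0.00264). STC2, a secreted glycoprotein, fell by 2.34 on the log2 scale (SE 0.40, adjusted p = 0.00248).

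The angiogenic factor VEGFA moved against the direction of NDRG1. Controls held a mean of 218 ± 37.0 TPM and the 12 h cows 21.7 ± 4.50 (SD, n = 4), with 122 at 4 h. It fell at both times, with log2 values of -0.81 at 4 h (SE 0.18, adjusted p = 0.0125) and -2.99 at 12 h (SE 0.20, adjusted p = 2.31e-06). ADM, the vasodilator adrenomedullin, rose at 12 h by 2.10 (SE 0.20, adjusted p = 1.19e-05), from 186 ± 48.3 to 656 ± 88.3 TPM. TFRC, the transferrin receptor, fell by 2.57 (SE 0.26, adjusted p = 1.91e-05) and MXI1, an antagonist of MYC, rose by 1.58 (SE 0.16, adjusted p = 2.02e-05). Targets were called in both directions at both times, on either scale.

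Of 24 glycolytic hypoxia targets, 5 rose and 1 fell at 4 h (median 0.01). At 12 h, 5 rose and 4 fell (median 0.00). All-gene shares were 8.65% up and 5.59% down at 4 h, and 23.6% up and 25.3% down at 12 h. On log2(TPM + 1) the glycolytic list had 1 gene up and 12 down at 12 h (median -0.28), and 4 up and 1 down at 4 h. The glucose transporters SLC2A1 and SLC2A3 rose at 4 h by 1.72 (SE 0.25, adjusted p = 0.000867) and 1.19 (SE 0.16, adjusted p = 0.000452). For SLC2A1 the controls had a mean TPM of 70.3 ± 4.69, the 4 h cows 226 ± 82.1 and the 12 h cows 71.8 ± 10.3. HK2, the inducible hexokinase, rose at 4 h by 1.79 (SE 0.34, adjusted p = 0.00482) with mean TPM of 7.28 in the controls, 24.5 at 4 h and 6.97 at 12 h. GYS1, glycogen synthase, fell at 4 h by 0.52 (SE 0.12, adjusted p = 0.0162) and at 12 h by 1.01 (SE 0.13, adjusted p = 6.19e-05). At 12 h ENO2, an enolase, rose by 3.07 (SE 0.32, adjusted p = 1.97e-05) from a low mean of 0.835 TPM, while AK4, an adenylate kinase, fell from 25.6 to 8.31 TPM (adjusted p = 0.000288) and HK1, the housekeeping hexokinase, by 0.53 on the log2 scale (SE 0.09, adjusted p = 0.000340).

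**Figure D5:**
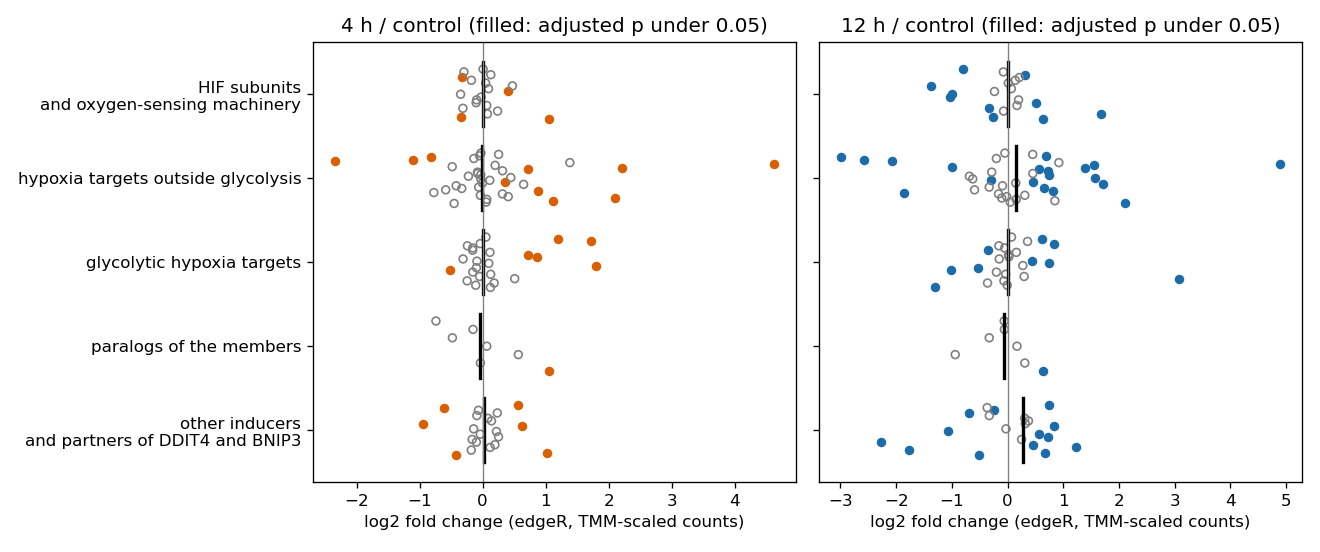
The log2 fold change of TMM-scaled counts (x axis) of every tested gene of the 5 lists at 4 h and at 12 h against the controls, filled where the adjusted p was under 0.05, with the list median as a black bar. In each list except the paralogs, called genes lie on both sides of 0 at both times on this count scale.

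Among 7 tested paralogs of the members, ARNT2 alone was called, with 0.63 at 12 h (SE 0.22, adjusted p = 0.0331) after 1.05 at 4 h. Of all tested genes 14.2% were called at 4 h and 48.9% at 12 h. On log2(TPM + 1) the 12 h value of ARNT2 did not pass (0.26, adjusted p = 0.263). The paralogs NDRG2 (-0.48, adjusted p = 0.0670), NDRG4 (-0.74, adjusted p = 0.154) and NDRG3 (-0.15, adjusted p = 0.491) did not pass at 4 h. EGLN2 (0.17, adjusted p = 0.0673) and BNIP3L (0.31, adjusted p = 0.0913) did not pass at 12 h, nor did NDRG2 (-0.33, adjusted p = 0.108), which was called on log2(TPM + 1) (-0.61, adjusted p = 0.00792). HIF3A, the third alpha subunit gene, was under the count minimum.

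DDIT4 and BNIP3 also answer to stresses other than hypoxia, and 20 genes of those routes and of their partners were all tested. At 4 h, 3 rose and 3 fell (median 0.02), and at 12 h, 7 rose and 6 fell (median 0.28), against 6 up and 8 down on log2(TPM + 1). On the count scale 8.65% of all tested genes rose and 5.59% fell at 4 h. At 12 h 23.6% rose and 25.3% fell. ATF4, the transcription factor of the integrated stress response that can induce DDIT4, rose at 4 h by 1.03 (SE 0.15, adjusted p = 0.000921), with means of 284 TPM in controls and 562 at 4 h. SESN1, a sestrin that restrains mTORC1, fell at 4 h by 0.94 (SE 0.20, adjusted p = 0.00862). RHEB, the GTPase that activates mTORC1, rose by 0.63 (SE 0.14, adjusted p = 0.0125) and ULK1, the kinase that starts autophagy, by 0.56 (SE 0.15, adjusted p = 0.0263).

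At 12 h, DDIT3, a stress transcription factor, rose by 1.23 (SE 0.15, adjusted p = 6.06e-05) and MAP1LC3A, an autophagosome protein, by 0.72 (SE 0.11, adjusted p = 0.000217). FOXO3, a transcription factor known to induce BNIP3, fell by 2.27 (SE 0.30, adjusted p = 8.67e-05), from a mean of 12.5 TPM in controls to 2.11. CEBPB, another transcription factor, fell by 1.77 (SE 0.23, adjusted p = 7.87e-05).

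The genes whose pattern over the 12 libraries was most like that of each tested member were found by the root mean square (RMS) difference of log2 CPM, each gene centred on its control mean. ARNT was matched most closely, by DCAF1 (RMS 0.0625) and SPAG9 (RMS 0.0697). EGLN1 was nearest to HBP1 (0.0788) and DUSP11 (0.107), EPAS1 to CHP1 (0.107) and MAPKBP1 (0.151), BNIP3 to ZNF212 (0.109) and GNG2 (0.1299), and HIF1A to RB1 (0.110) and LYPLA1 (0.123). DDIT4 was nearest to MCUR1 (0.234). The nearest genes to NDRG1 were MARCKSL1 (0.292) and CTNNAL1 (0.321), which had log2 fold changes of 2.29 and 2.19 at 4 h and 1.95 and 1.44 at 12 h. EGLN3, the member with the fewest counts among those tested, was nearest to HSPB11 (0.306) and ZFYVE19 (0.321). No other member was among these nearest genes. Only the 2 nearest genes of each member were kept, so this does not show whether members share a pattern.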

How the data were processed

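Total RNA of whole corpora lutea from 12 cows was sequenced, and for each cow the authors deposited a table of 27270 genes, giving an expected count (RSEM's estimated count), a TPM, an FPKM and a transcript length for each gene. The submitters' processing notes name RSEM 1.3, STAR 2.5 and the build ARS-UCD 1.2. The deposited FPKM and TPM are scaled by library and transcript length, and the deposited expected counts are not. Whether counting used strand is not given in the sources used here.

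Expected counts were rounded. The 14481 genes that reached 10 counts in 4 or more of the 12 libraries were scaled by TMM and tested with edgeR 4.0.16 (quasi-likelihood test, 3 groups in 1 fit) with Benjamini-Hochberg adjustment over all genes in each comparison. ANKRD37 missed that minimum, so its fitted values come from the fit without it, which departs from the plan. TPM, within-cow ratios and transcript lengths were compared by exact two-sided permutation tests, for which 4 cows against 4 cannot go below p = 0.0286. The p values set a difference between groups against the spread between cows. No library was a copy of another: at most 1.28% of genes over 20 counts were equal in any 2 libraries.

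The members and lists were chosen with earlier results of these data known. The genes named are all members, up to 4 of each list with the smallest p at 4 h and at 12 h, and the 2 genes most like each member. Some genes that this rule names are not reported here. HILPDA was not analysed here, and HIGD1A stood on more than 1 row and was left out. Markers of endothelial cells, macrophages, neutrophils, pericytes, fibroblasts, lymphocytes, erythrocytes and luteal cells were followed. Of the lists not described in the report, at 12 h 5 of 10 fibroblast markers rose (1 on log2(TPM + 1), 2 without cow6455 and cow6314), 2 of 10 pericyte markers rose while 1 fell (1 rose under either alternative), 1 of 11 lymphocyte markers rose, and HBA, the only tested erythrocyte marker, rose. At 4 h 2 pericyte and 2 neutrophil markers and 1 macrophage marker rose, 2 lymphocyte and 2 luteal cell markers fell, and no fibroblast or erythrocyte marker was called (edgeR, unadjusted p under 0.05 in 0 and 1).

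Alternatives were DESeq2 1.42.0, RLE scaling, no count minimum, a minimum of 50, only the 2 groups compared, limma 3.58.1 on log2(TPM + 1), log2(TPM + 0.1) and log2(FPKM + 1), no mitochondrially encoded genes, an offset for transcript length (spline, 5 degrees of freedom), each cow left out, and cow6455 and cow6314 left out together. The fits were tested on simulated data. Figures and summaries were made with matplotlib 3.10.9, scipy 1.17.1, numpy 2.4.6 and pandas 2.3.3 under Python 3.11.15, and fits under R 4.3.3.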

Additional observations from a re-analysis of the deposited data

Results flagged for a closer look

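The effect at 12 h differed from that at 4 h, by edgeR's test of 12 h against 4 h, for 7 members. Of all tested genes 46.7% were called in this comparison. On log2(TPM + 1) (limma) 5 of the 8 tested members were called, of which 0 were higher and 5 lower at 12 h. The values that follow are from the count scale. The log2 difference was -0.97 for ARNT (adjusted p = 5.73e-05), -0.92 for DDIT4 (adjusted p = 0.00990), -0.76 for NDRG1 (adjusted p = 0.0178), -0.57 for HIF1A (adjusted p = 0.0141), 0.34 for EGLN1 (adjusted p = 0.0381), 0.44 for BNIP3 (adjusted p = 0.0151) and 1.12 for EGLN3 (adjusted p = 0.0149).

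No member's TPM and no within-cow ratio had 1 cow far from the other 3 of its group by Dixon's test. Transcript lengths did. The ARNT length was 2451 bases in cow7475 at 12 h. The NDRG1 length was 3090 bases (3089.55) in control cow7367, 3110 (3109.99) in cow5341 at 4 h and 3131 in cow6314 at 12 h. The EPAS1 length was 5537 bases in cow5341 at 4 h and 5624 in each of the other cows. For EPAS1 at 4 h and for NDRG1 in controls and at 12 h, the other 3 cows of the group had equal lengths, so any deviation would have stood apart and the chance rate of the test does not hold for them. Chance flags about 1 in 20 groups without such ties, and 42 groups were examined in all.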

How the results depend on the processing

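Of 549 refitted log2 fold changes of members, 505 kept their side of the threshold, 28 lost the call, 16 gained it and 0 reversed a call. Changes of sign among values not past the threshold, as for EPAS1 at 12 h, are counted among the 505. NDRG1, ARNT, EGLN1 and DDIT4 at 12 h and NDRG1 at 4 h kept their calls in all. With each cow left out, members called ranged from 1 to 2 at 4 h, stayed at 5 at 12 h and ranged from 5 to 8 between 12 h and 4 h. Leave-one-out counts were 1 to 5 at 4 h and 7 to 12 at 12 h for the oxygen-sensing list, 7 to 11 and 16 to 22 for targets outside glycolysis, 3 to 6 and 7 to 11 for glycolytic targets, 1 to 2 and 0 to 2 for paralogs, and 3 to 6 and 11 to 15 for other inducers and partners. Without cow5341 the oxygen-sensing list had 1 call at 4 h, the glycolytic list 3 and the other inducers 3. The oxygen-sensing list had 2 calls at 4 h with no count minimum, in the fit of 2 groups only and on either log2 TPM scale, instead of 4. The paralogs had 2 calls at 12 h by DESeq2 and without mitochondrially encoded genes, and 2 at 4 h and 3 at 12 h without cow6455 and cow6314, instead of 1. HIF1A's ratio of means at 12 h to control was 0.797 in TMM-scaled CPM (exact permutation test, p = 0.0571), and at 12 h to 4 h 0.645 in FPKM and 0.676 in TMM-scaled CPM, none past the threshold. NDRG1's ratio at 12 h to 4 h was 0.564 in FPKM and 0.591 in TMM-scaled CPM, also not past it. BNIP3's at 12 h to control was 1.44 in FPKM and 1.56 in TMM-scaled CPM, both past it. The causes were not tested. Neither scale measures RNA per cell. No paired analysis was possible because the labels number cows individually and share no replicate number between groups. Depth limits ANKRD37 and EGLN3 most.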
